A study of Mus musculus with 12 samples.

Results

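The genes described here are 10 members of the NRF2 and glutathione defence system of the mouse: Nfe2l2, Keap1, Ptgr1, Gstm1, Nqo1, Hmox1, Gclc, Gclm, Srxn1 and Txnrd1. They were taken by name from an expression table of 52661 genes, together with the 172 events that a splicing table of 401633 events lists for them. The set was chosen by measured values: Ptgr1 and Gstm1 were among the genes with more RNA after Puf60 knockdown in these same libraries. The knockdown values of Ptgr1 and Gstm1 are therefore a description without a test, and the other 8 genes carry the tests.

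NRF2, the product of Nfe2l2, is a transcription factor that KEAP1 holds in the cytoplasm and marks for degradation. Oxidants and electrophiles modify KEAP1, and NRF2 then enters the nucleus and, paired with a small MAF protein, binds antioxidant response elements. Its classical targets make glutathione (Gclc and Gclm), detoxify quinones, haem and aldehydes (Nqo1, Hmox1 and Ptgr1), conjugate glutathione to electrophiles (Gstm1) and keep thioredoxin and peroxiredoxins reduced (Txnrd1 and Srxn1). In neural cells the pathway is known for limiting oxidative injury.

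The cells were N2A, a mouse neuroblastoma line, in which Puf60, an RNA-binding splicing factor, was depleted by siRNA. Both stable lines used carried an siRNA-resistant Flag-Puf60 cDNA that doxycycline switches on, with exon 5 in pEx5 and without it in mEx5. In each line the control group received 15 nM of a non-targeting siRNA, the knockdown group 15 nM of a Puf60 siRNA, and the induction group the Puf60 siRNA with doxycycline at 2 µg/ml for 24 h, with RNA taken 48 h after transfection. There were 2 libraries, A and B, in each of the 6 groups, named biological duplicates with no word on separate cultures. The spread that the p-values rest on is therefore that between these libraries, which may be technical. The sample descriptions call the doxycycline libraries uninduced, against their treatment entries, which were followed. The non-targeting siRNA was in no library given together with doxycycline, and the drug and the cDNA cannot be told apart.

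Gene levels below are counts of exon-exon junction reads over the introns of the splicing table, given as CPM, the standard count scaled to library size. The libraries held 22908930 to 41494994 such reads. Puf60 itself fell to 0.199 of the control level in pEx5 and 0.242 in mEx5 on knockdown, and stood at 2.02 and 1.97 times the control on induction. Of 12 markers of neuroblastoma, 11 reached 1 RPKM (a deposited group value scaled to gene length and library size) in some group, their sum lying at 1353.7 RPKM in pEx5 control, 1169.7 in knockdown and 1200.7 in induction, and at 1299.1, 1079.7 and 1061.1 in mEx5. None of 4 immune and 3 endothelial markers reached 1 RPKM, against 1 of 5 for fibroblasts, Pdgfra, and 3 of 6 for glia, with Aqp4, S100b and Sox10 at or near 0. The summed fibroblast markers were 0.7 RPKM in pEx5 control and 1.2 in pEx5 knockdown, and 1.7 and 4.0 in mEx5, and their part in the results was not tested.

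On the per-length scale of the authors' deposited RPKM, 1 value per group, the members differed widely in level. Txnrd1 was the most abundant in pEx5 control at 126.1 RPKM, followed by Gclm at 83.9 and Hmox1 at 72.5. Gclc stood at 29.3 RPKM, Keap1 at 17.2, Nqo1 at 11.9, Nfe2l2 at 11 and Srxn1 at 6.15. Gstm1 and Ptgr1 were the lowest there, at 4.52 and 4.21 RPKM. In pEx5 knockdown Gstm1 was listed at 14.7 and Ptgr1 at 13.0 RPKM, while Gclc was at 28.4. These values have no error, since the table combines the libraries of a group.

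After Puf60 knockdown there was more RNA of most of these genes in both lines. Ptgr1 was 3.13-fold and Gstm1 2.52-fold above control over both lines, Hmox1 2.24-fold, Nqo1 1.74-fold and Nfe2l2 1.4-fold, while Keap1 stood at 1.06 and Gclc at 0.986 times the control. Of the 8 genes other than Ptgr1 and Gstm1, 6 rose, none fell and 2 did not pass limma's test at an adjusted p under 0.05. Over all 10363 genes fitted the same comparison called 51.8%, with 26.5% higher and 25.3% lower. Within the lines 5 of 8 rose in pEx5 (39.0% of all genes called, 19.5% higher) and 5 of 8 in mEx5 (35.9% called, 17.6% higher), Srxn1 passing in neither line alone. The median log2 difference of the 8 was 0.42, against 0.01 over all genes. RNA was measured in bulk, so a shift in the mix of cells and a change of RNA per cell cannot be told apart.

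Ptgr1, an NADPH-dependent reductase of prostaglandin metabolites and reactive aldehydes (chromosome 4, 58965439 to 58987119, minus strand, GRCm38), was counted over 9 introns. In pEx5 the control libraries A and B held 18.1 and 18.6 CPM, those of knockdown 56.9 and 60.3, and those of induction 34.8 and 40. The mEx5 controls held 28.4 and 32.1 CPM, knockdown 91.9 and 93.6, and induction 68.7 and 55.9. Within each line the knockdown libraries lay above the induction libraries and these above the controls, with no overlap. The log2 difference of knockdown from control was 1.67 ± 0.092 (SE) in pEx5 and 1.62 ± 0.092 in mEx5. Each of its 9 introns carried more junction reads after knockdown in both lines, by 2.53 to 4.31 times in pEx5 and by 2.73 to 3.84 times in mEx5.

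Gstm1, a mu-class glutathione S-transferase (chromosome 3, 108012255 to 108017973, minus strand, GRCm38), was counted over only 2 introns and with 112 to 605 reads per library. Mu-class genes are related in sequence, and how reads were split among them was not examined and is uncertain. It stood in pEx5 at 2.76 and 3.52 CPM for control, 11.25 and 9.94 for knockdown and 7.62 and 7.6 for induction. For mEx5 the control libraries held 11.9 and 10.06 CPM, knockdown 19.37 and 22.27, and induction 16.87 and 17.97. Conditions did not overlap within a line, but the mEx5 controls reached the level of the pEx5 knockdown libraries. The log2 difference on knockdown was 1.74 ± 0.14 (SE) in pEx5 and 0.92 ± 0.14 in mEx5. For Gstm1 the authors' deposited table lists log2 fold changes of 1.71 in pEx5 and 0.78 in mEx5, and for Ptgr1 1.66 and 1.58.

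**Figure D1:**
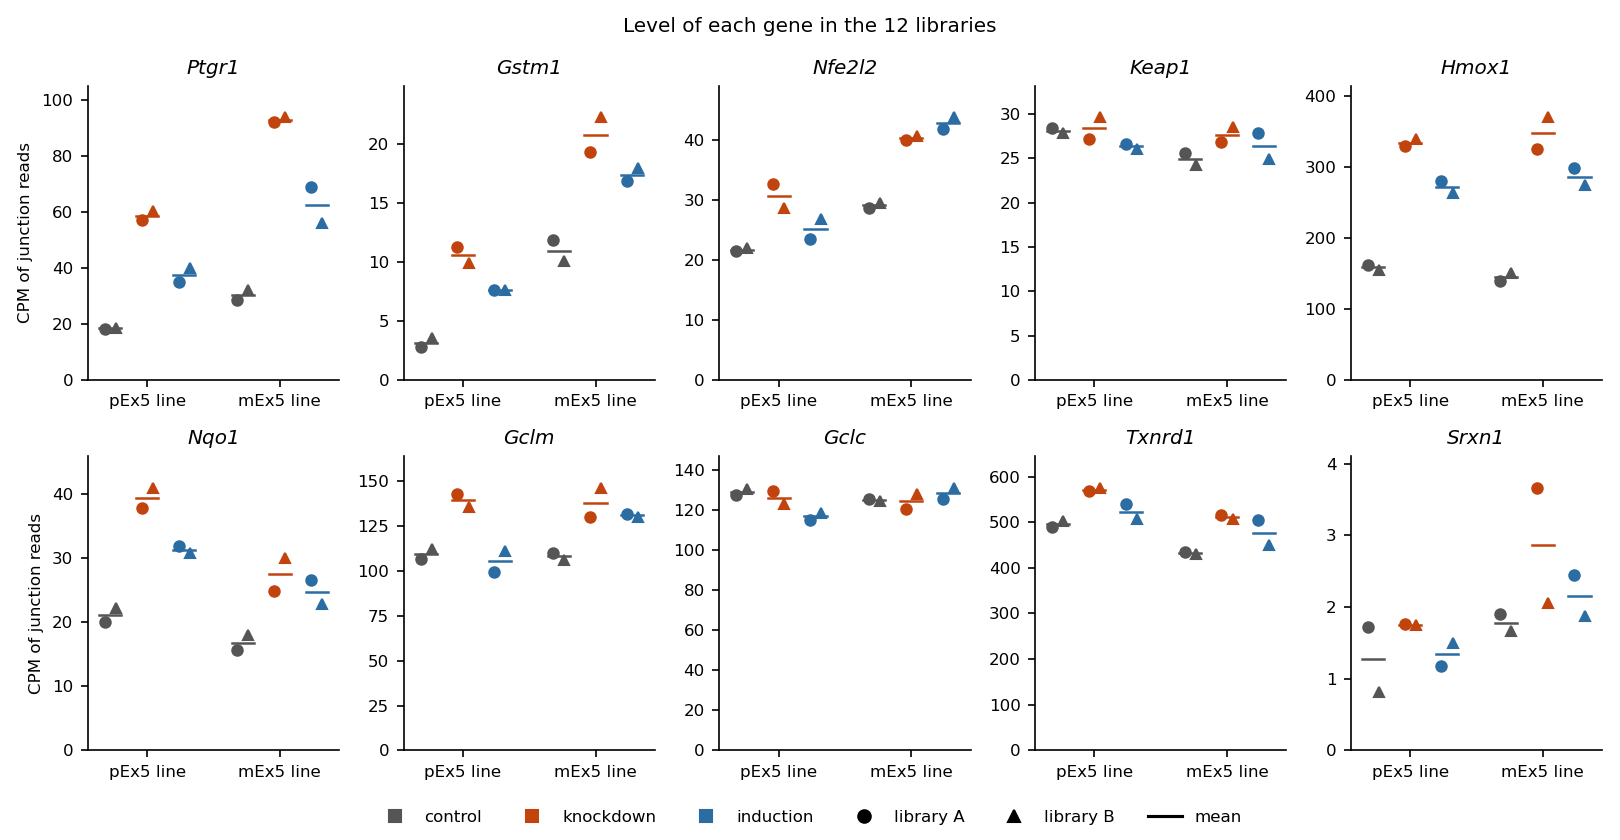
Level of each of the 10 genes in CPM of junction reads (vertical axes from 0, linear), with circles for library A, triangles for library B and a bar for the mean of 2, coloured by control, knockdown and induction in the pEx5 and mEx5 lines. Ptgr1 and Gstm1 show knockdown above induction above control in each line, Hmox1 the same order at 139.1 to 369.2 CPM, and Gclc stays between 114.9 and 130.8 CPM.

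Nfe2l2, which encodes NRF2 (chromosome 2, 75675513 to 75704641, minus strand, GRCm38), had 21.4 and 22 CPM in pEx5 control libraries, 32.6 and 28.6 with knockdown and 23.4 and 26.8 with induction. mEx5 libraries stood at 28.7 and 29.5 CPM without knockdown, 39.9 and 40.7 with it and 41.8 and 43.7 after induction. In pEx5 the induction libraries lay between control and knockdown, and in mEx5 they lay above both. Nfe2l2 rose on knockdown by 0.48 ± 0.06 (SE) on the log2 scale over both lines (limma adjusted p = 1.61e-06), and each of its 4 introns was higher in both lines. Keap1, the repressor of NRF2 (chromosome 9, 21229730 to 21239361, minus strand), stayed between 24.2 and 29.6 CPM in the 12 libraries. Its knockdown difference of 0.08 ± 0.06 (SE) had a 95% interval of -0.04 to 0.21 on the log2 scale (limma adjusted p = 0.258), and the groups overlapped in pEx5.

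Among the detoxifying targets, Hmox1, which encodes the haem-degrading enzyme haem oxygenase, was the most abundant (chromosome 8, 75093621 to 75100589, plus strand). It stood in pEx5 at 162.2 and 154.9 CPM for control, 328.9 and 338.8 for knockdown and 279.8 and 262.9 for induction. The mEx5 values were 139.1 and 150.6 CPM for control, 325.2 and 369.2 for knockdown and 298.1 and 273.6 for induction. The conditions did not overlap in either line, and both lines stood at similar levels. Hmox1 rose on knockdown by 1.17 ± 0.045 (SE) on the log2 scale (limma adjusted p = 1.47e-13), and each of its 4 introns was 2 to 2.45 times higher.

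Nqo1, the quinone reductase most used as a readout of NRF2 (chromosome 8, 107388225 to 107403206, minus strand), had 20 and 22.2 CPM in pEx5 control libraries, 37.9 and 41 with knockdown and 31.9 and 30.8 with induction. For mEx5 the control libraries held 15.7 and 18 CPM, knockdown 24.9 and 30.1, and induction 26.7 and 22.9. Knockdown libraries lay above controls in both lines, and in mEx5 they overlapped with induction. Nqo1 rose by 0.8 ± 0.074 (SE) on the log2 scale (limma adjusted p = 3.03e-08), and 5 of 5 introns were higher in both lines.

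The enzymes of glutathione synthesis divided by subunit. Gclm, the modifier subunit of glutamate-cysteine ligase (chromosome 3, 122245557 to 122270732, plus strand), stood in pEx5 at 106.8 and 112.5 CPM for control, 142.9 and 135.9 for knockdown and 99.7 and 111.1 for induction. mEx5 libraries stood at 110.3 and 106.2 CPM without knockdown, 129.9 and 146.3 with it and 131.8 and 130.4 after induction. Knockdown libraries were above controls in both lines, while induction libraries overlapped with controls in pEx5 and lay above them in mEx5. Gclm rose by 0.35 ± 0.047 (SE) on the log2 scale (limma adjusted p = 3.84e-06). Gclc, the catalytic subunit (chromosome 9, 77754535 to 77794485, plus strand), had a knockdown difference of -0.02 ± 0.039 (SE), with a 95% interval of -0.1 to 0.06 (limma adjusted p = 0.698). By ratios rounded to 3 digits, 1 of its 15 introns was higher after knockdown in both lines, against 6 of 6 for Gclm. Another, of 3422 nt, went from 213.8 to 214.5 scaled reads in pEx5, a ratio that rounds to 1, and from 194.1 to 199.1 in mEx5.

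Of the thioredoxin-linked genes, Txnrd1, the cytosolic thioredoxin reductase (chromosome 10, 82833951 to 82897712, plus strand), had 490 and 501.6 CPM in pEx5 control libraries, 567.5 and 575 with knockdown and 539.8 and 507.1 with induction. The mEx5 values were 434.9 and 430 CPM for control, 515.9 and 507.3 for knockdown and 503.9 and 450.8 for induction. The difference was small but without overlap between knockdown and control, and Txnrd1 rose by 0.22 ± 0.038 (SE) on the log2 scale (limma adjusted p = 6.25e-05). Srxn1, which encodes sulfiredoxin, the enzyme that repairs overoxidised peroxiredoxins (chromosome 2, 152105516 to 152111376, plus strand), was counted over 1 intron with 29 to 114 reads per library. It stood in pEx5 at 1.72 and 0.82 CPM for control, 1.76 and 1.75 for knockdown and 1.18 and 1.5 for induction, and 1.9 and 1.66, 3.66 and 2.06, and 2.44 and 1.87 CPM in the same groups of mEx5. Srxn1 passed the test only narrowly, at 0.57 ± 0.22 (SE) and limma adjusted p = 0.0393. The call was lost in 8 of 17 other settings, among them without pEx5 control B (0.32, adjusted p = 0.249) and without mEx5 knockdown A (0.37, adjusted p = 0.205). The authors' deposited table, which does not rest on this intron, lists Srxn1 with log2 fold changes of 0.72 in pEx5 (FDR 7.85e-23) and 0.63 in mEx5 (FDR 3.43e-18).

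**Figure D2:**
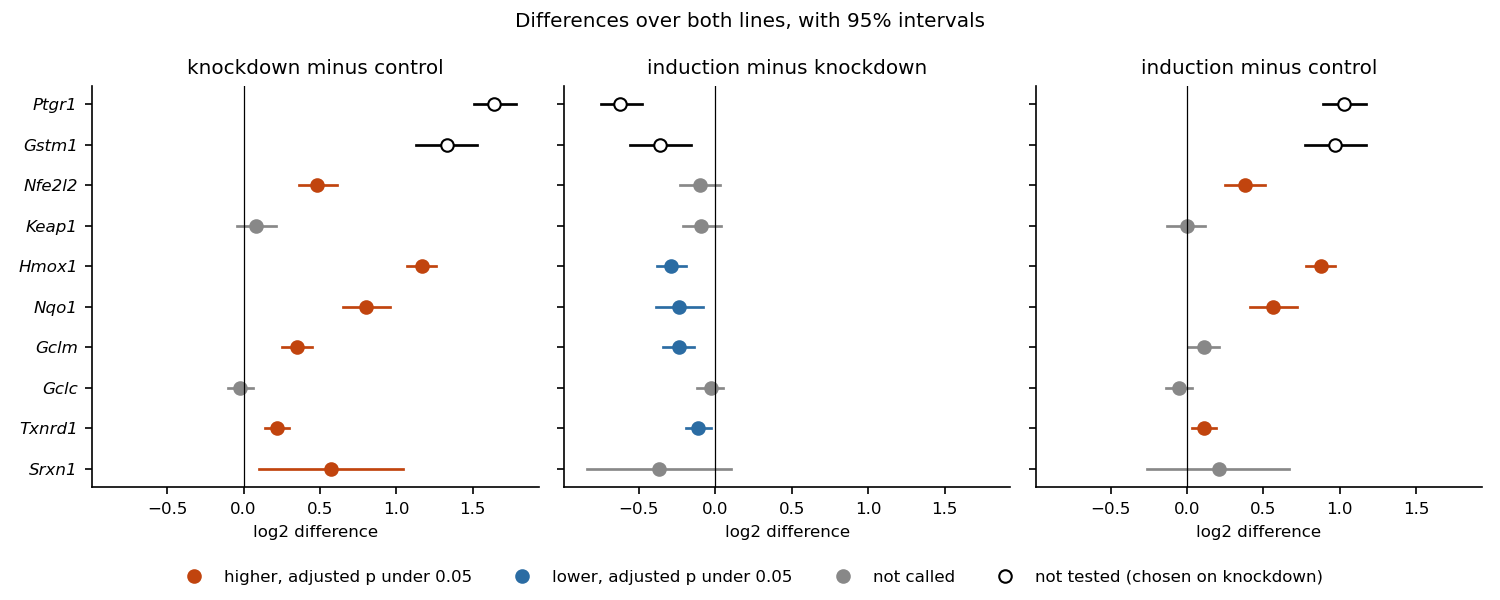
Log2 difference of each gene over both lines (points) with 95% intervals (lines), for knockdown minus control, induction minus knockdown and induction minus control, coloured where limma's adjusted p was under 0.05 and open where no test was made. Differences on knockdown run from -0.02 for Gclc to 1.64 for Ptgr1, and those on induction against knockdown from -0.62 for Ptgr1 to -0.03 for Gclc.

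The effect of knockdown was then compared between the lines. Neither Nfe2l2 (0.49 ± 0.085 (SE) in pEx5 and 0.47 ± 0.085 in mEx5) nor any other of the 8 genes passed limma's test of the difference, at which 0.0289% of all genes passed and 0 of the 8 had an unadjusted p under 0.05. The interval of the difference was -0.23 to 0.27 for Nfe2l2 and -0.37 to 0.01 for Hmox1, whose differences were 1.07 ± 0.064 (SE) and 1.26 ± 0.064. For Gstm1 and Ptgr1, chosen for their gain on knockdown and not tested, the difference was 0.82 and 0.06 on the log2 scale. By the authors' deposited table, at an FDR under 0.05, the genes higher after knockdown were 5 of the 8 in pEx5 and the same 5 in mEx5, namely Nfe2l2, Nqo1, Hmox1, Srxn1 and Txnrd1, where 15.2% and 14.0% of all genes were higher. Gclm was not among them, with log2 fold changes of 0.11 (FDR 0.139) and 0.13 (FDR 0.0827) in the authors' deposited table.

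Induction of the cDNA asked how far each gene moved back when Puf60 was supplied to depleted cells. Puf60 overshot the control level, while Ptgr1, Gstm1, Hmox1 and Nqo1 came part of the way. Over both lines, Hmox1 fell by 0.29 on the log2 scale, Gclm by 0.24, Nqo1 by 0.24 and Txnrd1 by 0.11 relative to knockdown. These 4 of 8 genes passed limma's test, all in the downward direction (adjusted p = 5.3e-05, 0.000484, 0.0161 and 0.0232), against 37.7% of all genes called and 18.7% called lower. Without pEx5 knockdown B, pEx5 induction B or mEx5 induction B, the calls of Nqo1 and Txnrd1 were lost. In these 3 fits Nqo1 stood at -0.21, -0.23 and -0.18 and Txnrd1 at -0.11, -0.09 and -0.07. The Nqo1 call was also lost without mEx5 knockdown B (-0.17, adjusted p = 0.0959), and the Txnrd1 call without pEx5 knockdown A or mEx5 knockdown A. Within the lines 4 of 8 fell in pEx5, where 9.27% of all genes were lower, and 1 of 8, Hmox1, in mEx5, where 25.7% were called and 12.5% lower. Keap1, Gclc and Srxn1 differed from knockdown by -0.09, -0.03 and -0.37 and did not pass (limma adjusted p = 0.269, 0.546 and 0.214). Ptgr1 and Gstm1, described without a test, differed from knockdown by -0.62 ± 0.065 and -0.36 ± 0.096 (SE). Nfe2l2 fell by 0.29 ± 0.085 (SE) in pEx5 (limma adjusted p = 0.021) and stood at 0.08 ± 0.085 in mEx5 (adjusted p = 0.514). The difference between lines was -0.37 ± 0.12 for Nfe2l2 and did not pass (limma adjusted p = 0.166), nor did that of Gclm, -0.33 ± 0.093 (adjusted p = 0.105). None of the 8 genes passed this test of the difference, against 0.753% of all genes, although 2 had an unadjusted p under 0.05.

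Against the controls, 4 of 8 genes remained higher on induction and none was lower, where 38.0% of all genes were called and 18.6% were higher. Within the lines 2 of 8 were higher in pEx5 (15.1% of all genes) and 4 of 8 in mEx5 (10.3%), where Gclm was among them. Hmox1 stood at 1.84 times the control, Nqo1 at 1.48 times, Nfe2l2 at 1.3 times and Txnrd1 at 1.08 times. Hmox1 differed by 0.88 ± 0.045, Nqo1 by 0.56 ± 0.074, Nfe2l2 by 0.38 ± 0.06 and Txnrd1 by 0.11 ± 0.038 on the log2 scale (SE; limma adjusted p = 2.44e-11, 7.72e-06, 5.96e-05 and 0.0296). The Txnrd1 call was lost without pEx5 control A, pEx5 induction A, mEx5 control A, mEx5 control B or mEx5 induction A, with a lowest difference of 0.07. Gclm stood at 0.11 ± 0.047 (SE), which did not pass (limma adjusted p = 0.0724), but passed without pEx5 induction A (0.15, adjusted p = 0.0309), mEx5 knockdown A or mEx5 knockdown B. Keap1, Gclc and Srxn1 stood at 0, -0.05 and 0.21 against control and did not pass. Ptgr1 and Gstm1 were 2.04 and 1.96 times the control on induction. The comparisons share libraries, so their values are not independent of each other.

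The induced lines, which differ in the exon 5 content of the cDNA, were compared for all 10 genes, since the difference itself is taken between induction libraries. The spread behind its test was pooled over all 12 libraries. Gstm1 was lower in pEx5 than in mEx5 by a difference of -1.19 ± 0.14 (SE) on the log2 scale, Nfe2l2 by -0.77 ± 0.085, Ptgr1 by -0.73 ± 0.092 and Gclm by -0.32 ± 0.066 (limma adjusted p = 1.38e-06, 9.53e-07, 4.9e-06 and 0.000872). Nqo1 was higher in pEx5, by 0.34 ± 0.1 (SE; limma adjusted p = 0.0156), a call lost without pEx5 induction A (0.32, adjusted p = 0.0869) or mEx5 induction B (0.23, adjusted p = 0.171). These 5 of 10 stand against 37.5% of all genes called. A fit to the 4 induction libraries alone, added after seeing the data, called the same 5 genes, with 33.6% of all genes called, and gave -1.19 ± 0.13 for Gstm1 and -0.73 ± 0.097 for Ptgr1 (SE; limma adjusted p = 1.23e-06 and 1.72e-05). Keap1, Hmox1, Gclc, Srxn1 and Txnrd1 did not pass, although the Txnrd1 difference went from 0.13 to 0.22 without mEx5 induction A. The 95% interval was -0.18 to 0.18 for Keap1 and -0.21 to 0.06 for Hmox1. Srxn1, counted over 1 intron, stood at -0.66 ± 0.32 (SE; limma adjusted p = 0.114). The authors' deposited table lists Srxn1 as lower in induced pEx5 (-0.56, FDR 5.74e-14), where 29.9% of all genes were called.

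Differences between the lines were also present in the control libraries, which had no induction. Nfe2l2 was lower in pEx5 controls by a difference of -0.42 ± 0.085 (SE) and Nqo1 and Txnrd1 were higher, by 0.32 ± 0.1 and 0.2 ± 0.054 (limma adjusted p = 0.000949, 0.0272 and 0.00996). These were 3 of the 8 genes tested, against 27.4% of all genes called. With scaling by total reads the share of higher among all genes called between control lines went from 1453 of 2835 to 938 of 2654. Without pEx5 control B or mEx5 control A only the call of Nfe2l2 was left, and that of Txnrd1 was also lost without mEx5 control B (0.19, adjusted p = 0.0712). Without pEx5 control A, whose Srxn1 level was the higher of the pair, Srxn1 also passed (-1.06, adjusted p = 0.0395). Between the knockdown libraries of the lines the same 3 of 8 passed, against 27.5% of all genes, with differences of -0.4 for Nfe2l2, 0.52 for Nqo1 and 0.16 for Txnrd1. By the authors' deposited table Srxn1 was lower in pEx5 between control lines (-0.57, FDR 7.35e-14) and between knockdown lines (-0.48, FDR 3.13e-11). Of all genes 24.2 and 25.9% were called there. Nqo1 was not called between control lines in the authors' deposited table (0.18, FDR 0.178). Ptgr1 and Gstm1, described without a test, differed between control lines by -0.72 ± 0.092 and -1.79 ± 0.14 (SE). On the linear scale pEx5 controls held 0.608 of the Ptgr1 and 0.289 of the Gstm1 of mEx5 controls, and induced pEx5 cells 0.603 and 0.439. Whether each line came from 1 clone is not stated, so the line and the cDNA it carries cannot be told apart.

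**Figure D3:**
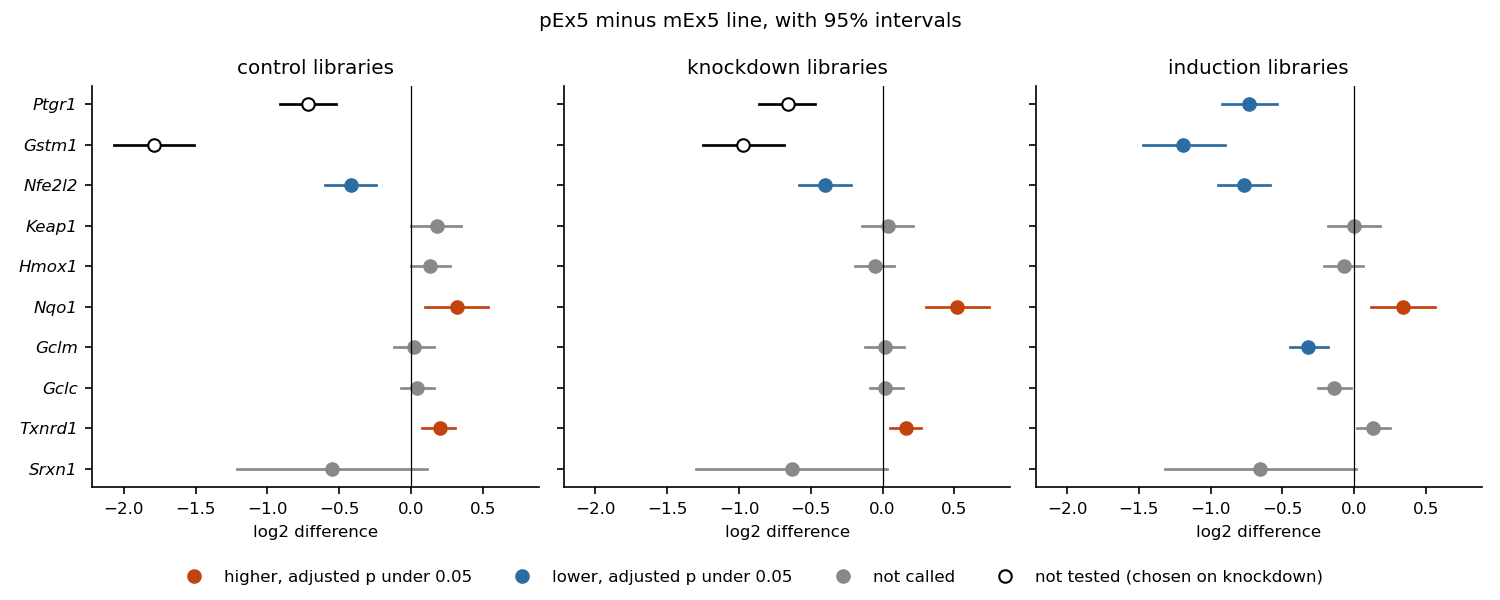
Log2 difference of pEx5 from mEx5 for each gene (points, with 95% intervals) in control, knockdown and induction libraries, coloured where limma's adjusted p was under 0.05 and open where no test was made. Gstm1, Ptgr1 and Nfe2l2 lie below 0 in all 3 panels and Nqo1 above 0, between 0.32 and 0.52.

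Of their 172 events (58 exons, 62 introns and 52 alternative splice sites), 142 had at least 10 reads in each library. The weighted limma test, which covers events with a mean inclusion (percent spliced in, PSI) of 5 to 95%, took in 10 of them. None was called on knockdown at an adjusted p under 0.05 with a change of at least 10 points, where 17.6% of all events were. By p alone 7 of the 10 passed on knockdown, 4 in Gclc, 2 in Txnrd1 and 1 in Nqo1, against 31.5% of all events. An unadjusted p under 0.05 was also found for 7. The 2 Txnrd1 exons and a 288 nt Gclc intron were in the PSI range only with the knockdown libraries in the mean. The 2 exons are also neighbours and not independent, so the share that passed is no measure of an excess. Without pEx5 control A 4 of the 10 passed by p alone. The unweighted limma fit over 118 events of the 8 genes also called 0 with a 10-point change, where 1.13% of all events were, with 21 at an unadjusted p under 0.05. Of those 21, 5 had a change of 0 points, as had 3 of the 8 that passed by adjusted p alone, all 3 of them Hmox1 exons at 100% inclusion. No event of Ptgr1, Gstm1, Nfe2l2, Keap1, Hmox1 or Gclm was in the PSI range of the weighted test, and those with 10 reads moved by at most 2.8 points on average over both lines. That largest value belonged to a Ptgr1 intron retained in 6.7% of pEx5 control and 1.1% of pEx5 knockdown transcripts, with a difference of 0 in mEx5 and as few as 52 reads.

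The events with the largest change on knockdown were a pair of neighbouring coding exons of Txnrd1. The 123 nt exon (chr10:82874613-82874735, plus strand, exon 3 of ENSMUST00000219368.1, GRCm38) was included in 95.4 and 97.4% of pEx5 control transcripts, 87.6 and 86.4% in knockdown and 93.7 and 92.5% in induction. Inclusion in mEx5 was 96.9 and 96.1% for control, 88.6 and 87.8% for knockdown and 95 and 97.1% for induction. The 73 nt exon that follows (chr10:82875624-82875696, exon 4 of the same transcript) was at 95.5 and 96.9%, 87.6 and 87.4%, and 93.7 and 93.1% in pEx5. It was at 96.5 and 96%, 88.6 and 88.7%, and 95.2 and 96.6% in mEx5. No knockdown library overlapped with another condition at either exon, and 981 to 2208 reads lay behind each value. Inclusion fell by 8.9 and 8.1 points on knockdown (weighted limma adjusted p = 1.93e-06 and 7.84e-07). It was 7 and 6.6 points higher on induction than on knockdown (weighted limma adjusted p = 0.000141 and 4.19e-05). Without the knockdown libraries, the mean of either exon lay above the 95% limit of the weighted test. Both exons thus entered it through the knockdown libraries, which these p-values do not account for. In the unweighted fit the induction difference had adjusted p = 0.0773 for the 123 nt exon and 0.0499 for the 73 nt exon. With 3 of 10 events passing by p alone on induction, the third being a Gclc intron, the share of all events was 21.5%. That intron, too, was in the range of the weighted test only with the knockdown libraries in the mean.

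The sequences of these exons are shown because the first holds an annotated start codon. Capitals mark the ATG at which the coding sequence of 3 of 5 protein-coding Txnrd1 transcripts of GENCODE begins. The 123 nt exon is printed from that codon on (chr10:82874649-82874735, plus strand, 87 bases) and the 73 nt exon whole.
Txnrd1 exon 3 from the ATG: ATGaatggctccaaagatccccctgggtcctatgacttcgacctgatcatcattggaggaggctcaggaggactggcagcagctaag
Txnrd1 exon 4: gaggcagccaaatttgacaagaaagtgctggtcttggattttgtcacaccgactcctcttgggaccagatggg

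A 75 nt exon that vast-tools lists upstream of this pair, and that matched no GENCODE exon by length, went the other way. Its inclusion was 1.3 and 1.8% for pEx5 control, 5.2 and 4.4% for knockdown and 1.8 and 1.5% for induction, and 1.3 and 1.8%, 4.4 and 4.2%, and 0.9 and 1.7% in mEx5. The groups of knockdown libraries did not overlap with the others, and the change of 3 points passed the unweighted limma fit (adjusted p = 0.0181), its mean being too low for the weighted one. The authors' deposited splicing table marked the 123, 73 and 75 nt exons as changed on knockdown and again on induction in both lines. Those were 3 of 120 member events with a call in mEx5 knockdown (3.03% of all events), 3 of 120 in pEx5 induction (2.21%) and 3 of 120 in mEx5 induction (2.64%). Between the knockdown lines the authors marked the 123 nt exon alone, 1 of 120 member events (0.721% of all events). A 107 nt Txnrd1 exon alone was marked between the induced lines, 1 of 120 (1.38%). No member event was marked between the control lines (0.519%).

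In Gclc 4 short introns were retained more often after knockdown, although the gene's level did not pass the test. The 288 nt intron 11 of ENSMUST00000034905.8 (chr9:77787900-77788187, GRCm38) was retained in 3.3 and 4.2% of pEx5 control transcripts, 11.4 and 7.5% in knockdown and 4.7 and 6.6% in induction. Retention in mEx5 was 3.9 and 5.9% for control, 8.4 and 13.5% for knockdown and 5.9 and 4.9% for induction. Knockdown libraries were the highest in each line. Retention rose by 5.9 points (weighted limma adjusted p = 0.000718) and fell by 4.7 points on induction (adjusted p = 0.0144). Without the knockdown libraries, the mean of this intron lay below the 5% limit of the weighted test. It thus entered that test through the knockdown libraries, which these p-values do not account for. In the unweighted limma fit its induction difference did not pass (adjusted p = 0.209). Introns 14, 9 and 13, of 69, 427 and 83 nt, rose by 4.5, 3.5 and 2.8 points on knockdown (weighted limma adjusted p = 0.0195, 0.00732 and 0.0233). On induction these 3 changed by 1.4, -0.4 and -0.4 points against knockdown and did not pass. For the 69 nt intron the mEx5 control and knockdown libraries overlapped, at 4.9 and 9.1% and at 13.9 and 7.3%. None of the 4 passed the unweighted limma fit (adjusted p = 0.0536 to 0.221). A 204 nt Gclc exon did pass it, lying within the 427 nt intron as deposited and matching no GENCODE exon by length. Its mean inclusion was 1.7% in pEx5 control, 5.3% in knockdown and 2.2% in induction, and 1.3, 3.8 and 0.8% in mEx5. Inclusion rose by 3.1 points on knockdown (unweighted limma adjusted p = 0.0161) and fell by 3.1 points on induction (adjusted p = 0.0273). Its mean was too low for the weighted fit.

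A 77 nt exon of Nqo1, with no GENCODE exon of its length (chromosome 8, 109913583 to 109913659 as deposited, assembly not stated), was included in 3.8 and 7.3% of pEx5 control transcripts, 12.7 and 16.1% in knockdown and 7.9 and 4.7% in induction. Inclusion in mEx5 was 7.5 and 6.4% for control, 8.5 and 16.1% for knockdown and 13.3 and 10.6% for induction. The pEx5 knockdown libraries stood apart, while in mEx5 knockdown and induction overlapped, and 57 to 235 reads lay behind each value. Inclusion rose by 7.1 points on knockdown (weighted limma adjusted p = 0.0154), a change that did not pass the unweighted fit (adjusted p = 0.129). The authors' deposited splicing table marked this exon and the 288 and 69 nt Gclc introns as changed in pEx5 knockdown alone, which made 6 of 120 member events there, against 3.63% of all events. Whether the lines differed at these events on knockdown was not tested. In Srxn1 the event with the largest change was an alternative donor site, used in 51.6 to 85.1% of transcripts over the 12 libraries at 42 to 134 reads. Its use was 84.7 and 71.4% in pEx5 control against 68.5 and 62.1% after knockdown, without overlap, a difference of -12.8 points. The mEx5 libraries overlapped, at 71.8 and 67.1% against 85.1 and 65.9%, a difference of 6 points. Neither line passed (weighted limma adjusted p = 0.255 and 0.586), nor did the mean of -3.4 points over both (adjusted p = 0.69).

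**Figure D4:**
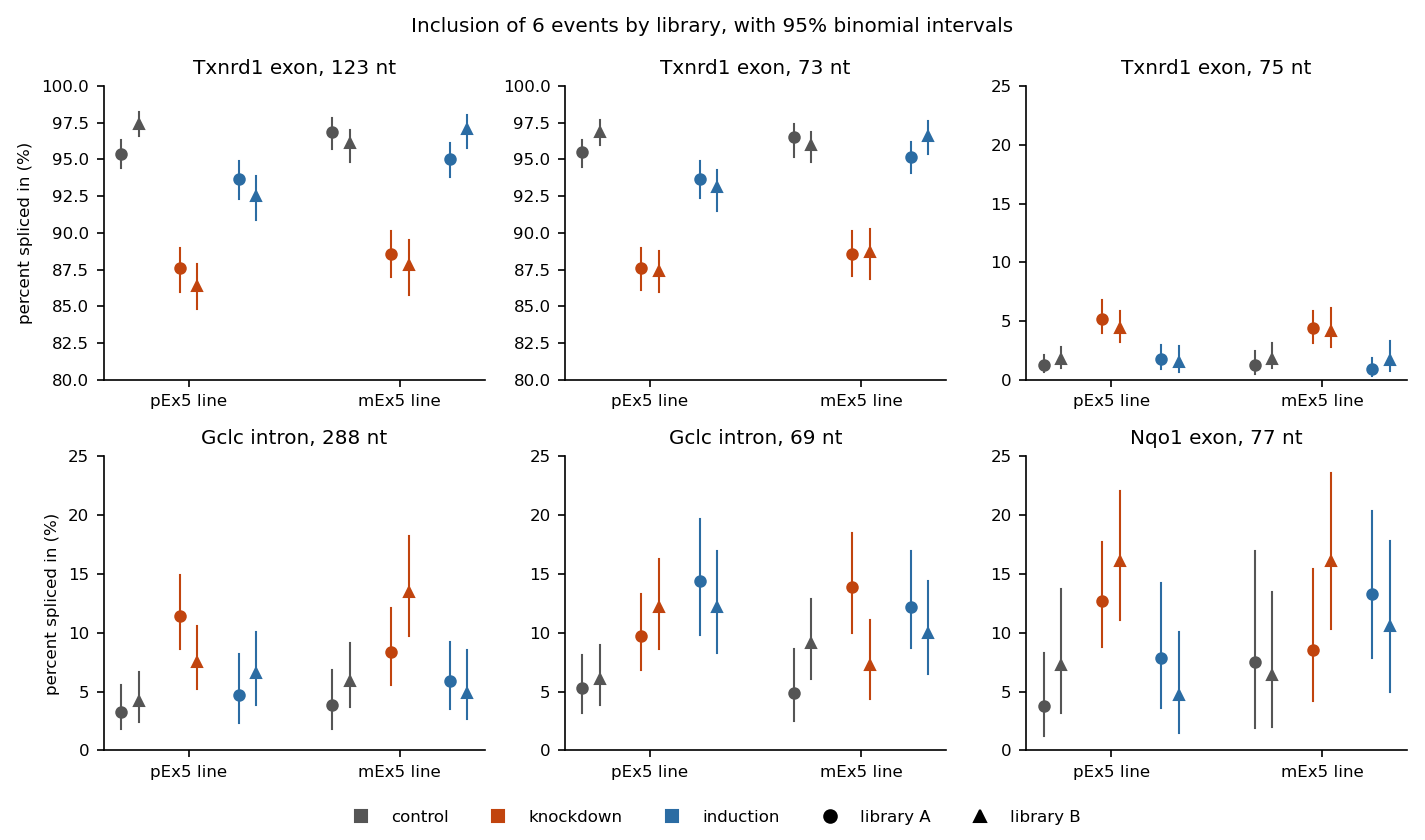
Percent spliced in of 6 events by library (circles A, triangles B) with 95% Clopper-Pearson intervals that cover counting error only, coloured by condition. The axes of the 123 and 73 nt Txnrd1 exons run from 80 to 100% and the others from 0 to 25%. Both Txnrd1 exons lie between 86.4 and 88.7% in the 4 knockdown libraries and at 92.5% or above elsewhere.

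Among other genes of the pathway the response to knockdown was mixed, and the counts below stand against 26.5% higher and 25.3% lower over all genes. Of 21 tested regulators and partners of NRF2, 4 rose (19%) and 1 fell (4.76%). Sqstm1, an autophagy receptor that binds KEAP1, rose by 0.71 ± 0.035 (SE) on the log2 scale and Ep300, a coactivator, by 0.17 ± 0.049, while Cand1, an exchange factor of cullin ligases, fell by 0.15 (limma adjusted p = 4.29e-12, 0.00762 and 0.0015). Of 24 other NRF2 targets, 11 rose (45.8%) and 3 fell (12.5%). Slc7a11, the cystine importer that feeds glutathione synthesis, rose by 1 ± 0.075 (SE) and Blvrb, a biliverdin reductase downstream of haem oxygenase, by 0.85 ± 0.065. The efflux pump gene Abcc1 fell by 0.78 and Idh1, an NADPH source, by 0.27 (limma adjusted p = 1.53e-09, 2.11e-09, 1.6e-11 and 5.22e-05 for these 4). The median log2 differences were 0.08 and 0.12, against 0.01 over all genes.

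In glutathione synthesis and turnover 7 of 19 tested genes rose (36.8%) and 3 fell (15.8%), with a median of 0.07. Ggct, which breaks down gamma-glutamyl dipeptides, rose by 0.59 ± 0.078 (SE), and Slc25a40, a mitochondrial carrier linked to glutathione import, and Ggt7 fell by 0.69 and 0.6. Of 12 tested glutathione S-transferases 4 rose (33.3%) and 3 fell (25%), with a median of 0.14. Gstm2, the mu-class neighbour of Gstm1, rose by 0.92 ± 0.077 and Gstk1 by 0.73 ± 0.18 (SE), and Mgst2 and Gstz1 fell by 0.4 and 0.37. Among 20 peroxidase and thioredoxin genes 6 rose (30%) and 5 fell (25%), shares near those of all genes, with a median of 0.08. Catalase (Cat) rose by 0.79 ± 0.046 (SE) and Msrb1, a methionine sulfoxide reductase, by 0.43 ± 0.074, while the mitochondrial thioredoxin reductase Txnrd2 fell by 0.93 and Txnrd3 by 0.22. Of 9 relatives of Ptgr1 and Nqo1, 3 rose (33.3%) and none fell, with a median of -0.02; Aldh2 rose by 0.35 ± 0.06 and Nqo2 by 0.3 ± 0.06 (SE). Slc7a11, Cat, Gsr, Prdx1, Prdx6 and Txn1 stand in more than 1 list.

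**Figure D5:**
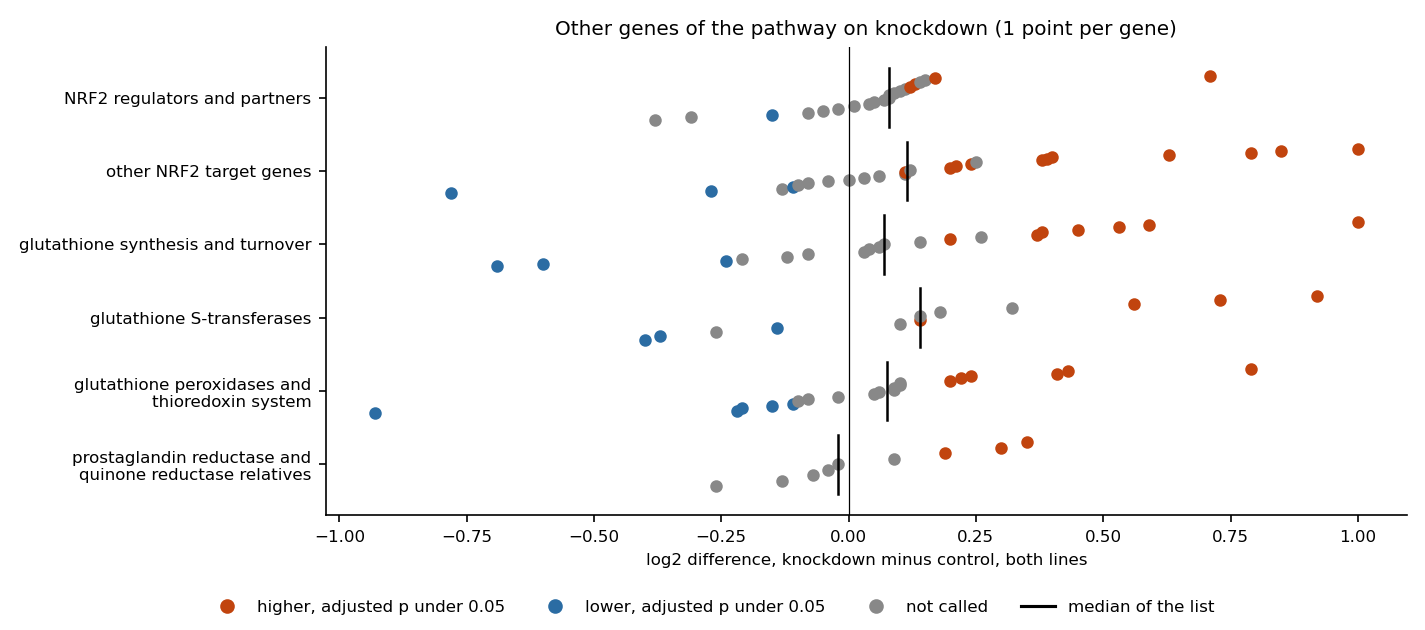
Log2 difference of knockdown from control over both lines for each tested gene (1 point per gene) of 6 lists of pathway genes, with a bar at the list's median and colour where limma's adjusted p was under 0.05. Points lie on both sides of 0 in each list, from -0.93 for Txnrd2 to 1 for Slc7a11.

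After induction Slc7a11 did not come down with Hmox1 and Nqo1. It stood at 9.14 CPM in pEx5 control, 15.1 in knockdown and 22.8 in induction, and at 9.5, 23.1 and 29.2 CPM in mEx5, rising by a further 0.47 ± 0.075 (SE) on induction (limma adjusted p = 6.93e-05). Sqstm1, Blvrb and Cat moved with Hmox1, falling by 0.25, 0.28 and 0.3 on induction and staying 0.46, 0.56 and 0.49 above control. Between the induced lines Gstm2 and Gstk1 differed in the direction of Gstm1, lower in pEx5 by differences of -1.42 ± 0.11 and -1.93 ± 0.26 (SE), and so did Aldh2, by -1.21 ± 0.085 (limma adjusted p = 7.24e-09, 1.12e-05 and 2.42e-09). The control lines, without induction, differed in the same direction. Gstm2 stood at 6.37 CPM in pEx5 control against 26.6 in mEx5 control, Gstk1 at 0.423 against 3.39 and Aldh2 at 27.7 against 63.5. Gstk1 was low throughout, with a highest group mean of 4.35 CPM. The line and its cDNA cannot be told apart here either. Of the 12 tested transferases, none was higher in induced pEx5 and 6 were lower, against 20.1 and 17.4% of all genes. Scaled by total reads the transferase counts were again 0 and 6, while the balance of all genes turned, from 2080 higher of 3881 called to 1741 of 3909.

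The genes whose level followed Ptgr1 and Gstm1 most closely over the 12 libraries were found by Pearson's r of log2 CPM among 8520 genes averaging 200 reads or more. For Ptgr1 they were Ifi27l1 (r = 0.987), Prpf3 (r = 0.985) and Prnp (r = 0.984), which differed on knockdown by 0.65, 0.53 and 0.61 on the log2 scale. For Gstm1 they were Wwtr1 (r = 0.983), Myl9 (r = 0.98) and Vil1 (r = 0.977), with knockdown differences of 1.08, 2.61 and 0.83 and differences between control lines of -1.74, -2.71 and -1.11. The libraries fall into 6 groups, so these values describe likeness of group patterns, and the genes compared share the libraries and their scaling.

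The promoters of the members were read for the core of the antioxidant response element, since several members moved together. RefSeq windows of 250 bases before the start site (GRCm38.p6) were present for 8 of the 10 genes, in 11 windows, and not for Hmox1 and Gclc. The motif TGACNNNGC, with N for any base, was searched on both strands and was found in 10.2% of all 32851 windows of this length. It was present in 3 of the 11 windows, those of Nfe2l2 and Gclm and 1 of 3 of Txnrd1. Its letters were not in the windows of Ptgr1, Gstm1, Nqo1, Keap1 and Srxn1. Sequence further from the start was not searched, so a motif there would be missed. An annotated GENCODE exon of the same gene overlaps the windows of Ptgr1, Nqo1, Keap1 and Srxn1. The windows of Nfe2l2, Gclm and Gstm1 are shown as examples with and without a match, 5′ to 3′ on the gene's strand, with the match in capitals. The match ends 232 bases before the start in Nfe2l2 and 126 before it in Gclm, where it lies on the opposite strand.
Nfe2l2 (chr2:75704664-75704913, minus strand): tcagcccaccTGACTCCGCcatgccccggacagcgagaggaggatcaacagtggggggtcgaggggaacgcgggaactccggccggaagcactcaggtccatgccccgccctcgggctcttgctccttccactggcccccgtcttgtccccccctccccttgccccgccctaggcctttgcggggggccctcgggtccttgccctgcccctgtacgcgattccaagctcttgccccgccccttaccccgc
Gclm (chr3:122245307-122245556, plus strand): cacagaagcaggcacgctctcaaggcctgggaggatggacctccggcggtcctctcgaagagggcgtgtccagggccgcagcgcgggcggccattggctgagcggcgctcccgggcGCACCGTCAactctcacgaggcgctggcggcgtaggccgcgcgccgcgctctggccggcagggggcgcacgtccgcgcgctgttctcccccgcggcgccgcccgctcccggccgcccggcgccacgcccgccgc
Gstm1 (chr3:108017974-108018223, minus strand): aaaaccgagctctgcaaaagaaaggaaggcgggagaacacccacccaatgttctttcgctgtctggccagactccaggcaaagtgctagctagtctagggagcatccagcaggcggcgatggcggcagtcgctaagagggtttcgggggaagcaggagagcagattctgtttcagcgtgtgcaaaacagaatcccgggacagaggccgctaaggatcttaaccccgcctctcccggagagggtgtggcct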

How the data were processed

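The authors' deposited splicing table, made with vast-tools, gives PSI in percent for each event and library, with a quality text holding read counts, per the file headers and values. The authors' deposited expression table gives 1 rpkm value per gene and group, with log2 fold changes, p-values and FDR (adjusted p-values) from the authors, and Salmon 0.14.1 and edgeR are named in the submitters' processing notes. A further deposited table gives the authors' PSI score per group and a True or False call, whose criterion is not given in the sources used here. For levels per library, the deposited counts of junction reads over each intron were summed per gene, a total that can itself move with splicing. They were scaled by the median of ratios, and log2 CPM with a prior count of 2 was fitted with limma 3.58.1 in R 4.3.3 (1 coefficient per group, trend) for the 10363 genes averaging 20 reads or more, with Benjamini-Hochberg adjustment over all of them.

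Splicing was fitted with limma on the logit of inclusion reads (pseudocount 0.5 reads, variance floor 0.01, precision weights), for the 22767 events that no library covered with fewer than 10 reads and whose mean PSI was 5 to 95%. Alternatives were an unweighted fit over 222055 events, other scalings, filters and priors, and a replicate block. Separate fits left out each library in turn, and a fit to the induction libraries alone was added after seeing the data. The fits were also run on simulated data with few changed genes, and with changes only in events of middle inclusion. That setting differs from these data, so the simulation is no support for the calls made here. Duplicates differed beyond counting noise, with a chi-square per gene of 4.71 to 9.71. Intervals of PSI are Clopper-Pearson at 95% and cover counting error only. Of 120 exon and intron events, 111 matched GENCODE M21 once by length and none had the same start, so GRCm38 positions come from GENCODE and others are as deposited. All 10 members are named throughout. Of each pathway list, the 2 largest rises and 2 largest falls among genes called on knockdown are named, and for Ptgr1 and Gstm1 the 3 most correlated genes. The 75 nt exon of Txnrd1 and the 204 nt exon of Gclc were picked after their values were seen. So were the later values of Slc7a11, Sqstm1, Blvrb, Cat, Gstm2, Gstk1 and Aldh2. The members and lists were chosen with earlier results of these data known.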

Additional observations from a re-analysis of the deposited data

Results flagged for a closer look

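For Gclc the induction libraries lay on opposite sides of the controls in the lines, with neither line passing the test. In pEx5 both induction libraries, at 114.9 and 118.3 CPM, lay below both controls at 127.2 and 130.2 CPM, a log2 difference of -0.14 ± 0.056 (SE; limma adjusted p = 0.0615). In mEx5 both induction libraries, at 125.4 and 130.8 CPM, lay above both controls at 125.2 and 124.4 CPM, a log2 difference of 0.04 ± 0.056 with a 95% interval of -0.08 to 0.15 (limma adjusted p = 0.696). The difference between the lines was not tested.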

How the results depend on the processing

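Of 50 results for single members, 39 kept their side of the threshold in each of up to 19 settings and 11 crossed it in at least 1. The sign changed in at least 1 setting for 6 results, none of them past the threshold before or after. Scaling by total reads took Gclc on knockdown to 0.01 and Gclm between control lines to -0.03, and over left-out libraries the latter ran from -0.02 (without pEx5 control B) to 0.06. Srxn1 on induction against control ran from -0.05 (without pEx5 control B) to 0.46. The difference in knockdown effect ran from -0.59 to 0.43 for Srxn1, above 0 without pEx5 control A, mEx5 knockdown A or mEx5 control B, from -0.07 (without pEx5 knockdown A) to 0.12 for Nfe2l2, and from -0.06 to 0.03 for Gclc, above 0 without knockdown B of either line. Fitting limma without the trend left 2 of 8 genes, Hmox1 and Gclm, called on induction against knockdown and 1, Nfe2l2, between control lines, and the cause was not tested. Leaving out 1 library at a time gave 5 to 6 genes called on knockdown, 2 to 4 on induction against knockdown, 3 to 5 on induction against control, 4 to 6 between induced lines and 1 to 4 between control lines. A group left with 1 library is then assumed to vary like the others. No left-out library gave a member whose knockdown effect differed between lines, or a splicing event past 10 points. Scaling by total reads moved the median of all genes to 0.039 on knockdown, and between control lines it called 938 genes higher of 2654, against 1453 of 2835 before, between knockdown lines 1086 of 2754, against 1439 of 2853, and between induced lines 1741 of 3909, against 2080 of 3881. The all-gene count for a different induction effect, 78, was 19 without the read filter, 15 without the trend and 17 to 89 over left-out libraries, and that for a different knockdown effect, 3, was 1 to 3. Scaled by total reads, Gclc passed between induced lines (-0.17, adjusted p = 0.021), Gclm on induction against control (0.14, adjusted p = 0.0257), and Nqo1 no longer between control lines (0.28, adjusted p = 0.0555). The adjusted p of Srxn1 on knockdown was 0.0873 without the read filter and 0.084 without the trend. With a mean of 100 reads required, Srxn1 was not fitted. With the replicate block the counts were 6 on knockdown, 4 on induction against knockdown, 4 against control, 5 between induced lines, 3 between control lines and 0 for a difference in knockdown effect, and no splicing event was called, so the block changed no count. The letters A and B share no stated origin, and the correlation of A minus B differences between groups ran from -0.13 to 0.16. Depth limits Srxn1 and Gstm1 most, at 29 to 114 and 112 to 605 reads per library.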

Other observations

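For Gclm the deposited values disagree among themselves. The authors' deposited RPKM of Gclm goes from 83.9 to 107.4 on knockdown in pEx5 and from 79.9 to 102.9 in mEx5, log2 ratios of 0.36 and 0.37. The authors' deposited table gives log2 fold changes of only 0.11 and 0.13 for the same comparisons, while junction reads gave 0.35 in both lines. Over 11701 genes with an RPKM of at least 1 in pEx5, the RPKM ratio minus the deposited log2 fold change had a 5th to 95th percentile range of -0.15 to 0.17, and Gclm stood at percentile 97.2. Over 11953 such genes in mEx5 the range was -0.17 to 0.19 and Gclm stood at percentile 96.5. For Srxn1 in mEx5 the authors' deposited table gives 0.63 where its RPKM gives 0.31, a difference of -0.32, while in pEx5 the values are 0.72 and 0.79. Differences over 0.2 in size were present for 6.96 and 8.2% of genes.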
